A study of Homo sapiens with 6 samples.

Results

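The expression of 5 genes of the plasminogen activator system was examined in MDA-MB-231 cells, a human triple-negative breast cancer line of wild-type genotype. The genes were PLAU, PLAUR, PLAT, SERPINE2 and SERPINB2. They were taken by gene symbol from the deposited table of 58735 genes, and each symbol matched 1 row. Both groups carried PKH26, a membrane dye diluted at each division, and had been chased for 12 days in DMEM with 10% serum. Slow-cycling cells (SCC), also called dormant by the submitters, were the 1% that kept most dye. Rapid-cycling cells (RCC), the proliferating control, were gated at moderate dye by the protocol but are listed as PKH26lo among their attributes. Each group had 3 libraries, given as biological replicates of this 1 line.

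Plasminogen is a circulating zymogen that is cleaved to plasmin, a broad protease that digests fibrin and matrix proteins. Urokinase (PLAU) and tissue-type activator (PLAT) make this cut. Urokinase does so mostly while bound to its receptor (PLAUR) at the cell surface, and serpins trap both enzymes in complexes that are then taken up by endocytosis. High urokinase, receptor and inhibitor levels are well known from invasive breast tumours, and both PLAU and PLAUR are textbook targets of AP-1, the transcription factor family that the series title names.

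SCC libraries held 19498054 to 27831824 counts each, and RCC libraries 17655855 to 22746267. SCC replicate 1 stood apart: its median log2 deviation from the mean of the 6 libraries was -0.24 in the tenth of tested genes with the lowest GC content and 0.40 in the tenth with the highest, against -0.16 to 0.10 in the other libraries. The line's mesenchymal markers VIM and CD44 summed to between 1103 and 1192 CPM (counts scaled to a common library size) in every library. Of the genes held to be low in such lines, PGR had 0 counts in 5 of 6 libraries, ESR1 5 to 16 counts and EPCAM 75 to 132 counts, but ERBB2 was at 71.3 to 106 CPM, the 80.4th percentile of tested genes. The proliferation gene MKI67 averaged 536 ± 53.5 CPM (SCC) and 494 ± 8.44 CPM (RCC; SD, n = 3), and did not pass the test (adjusted p = 0.401, edgeR), nor did the mitotic cyclin gene CCNB1 (log2 fold change -0.11, adjusted p = 0.388, edgeR). CDKN1A, the gene of the cell cycle inhibitor p21, was higher in SCC, at 47.6 ± 1.13 against 29.6 ± 1.04 CPM (SD, n = 3; 1.61-fold, adjusted p = 7.47e-04, edgeR).

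Of the 5 genes, PLAT was higher in slow-cycling cells, by 1.52-fold. SERPINE2 and PLAUR lay above RCC in each SCC library, at 1.28-fold and 1.16-fold, but did not pass the threshold over all genes. PLAU, the most highly expressed, was at 1.06-fold. SERPINB2 was almost without counts and was not tested. Genes were called at an adjusted p under 0.05 by edgeR's quasi-likelihood test with Benjamini-Hochberg adjustment over 15881 tested genes, and 1 of the 4 tested members was called higher, where 1.69% of all tested genes were and 2.07% were called in either direction. None of the 4 was called lower (0.378% of all tested genes), and the sign was positive for all 4 with edgeR, DESeq2 and limma. At an unadjusted p under 0.05, 3 of the 4 were higher and 0 lower, where 19.7% of all tested genes passed in either direction. In TMM-scaled CPM the groups did not overlap for any of the 4, a pattern seen in 27.8% of all tested genes. Bulk libraries cannot tell a change in each cell from a change in the share of cells that express a gene.

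**Figure D1:**
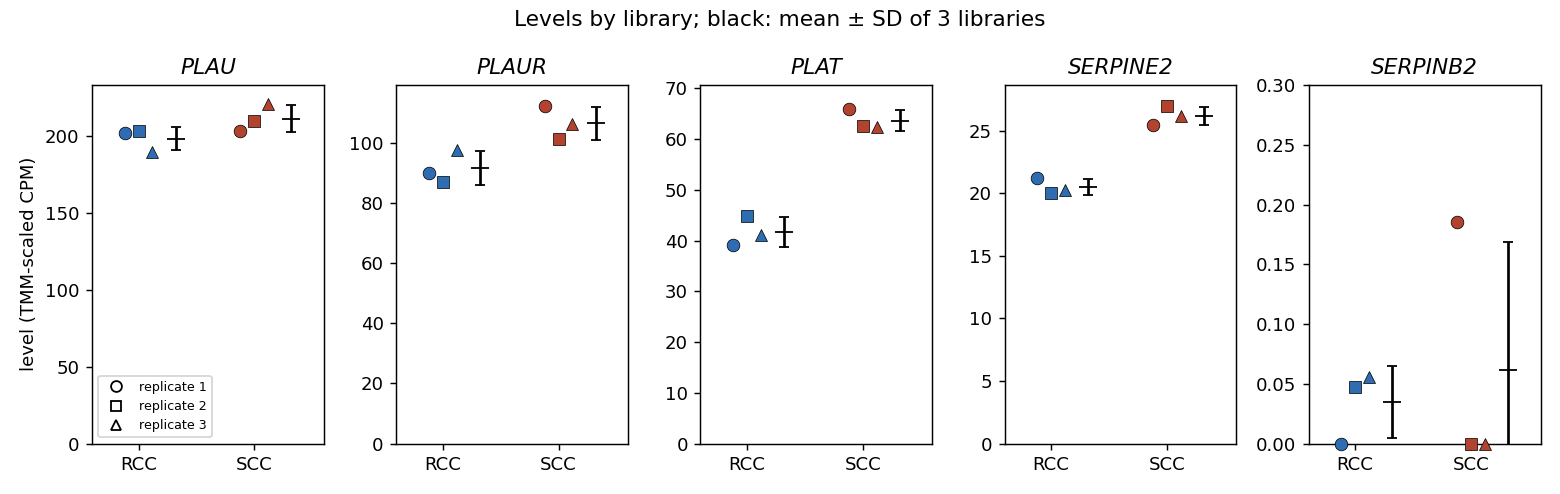
TMM-scaled CPM (y axis, linear from 0, a separate scale for each gene) of the 5 genes in RCC (blue) and SCC (red), with a symbol for each replicate and the mean ± SD of 3 libraries in black. The PLAT libraries sit between 62.3 and 65.95 in SCC and between 39.2 and 44.9 in RCC, while for PLAU the groups nearly touch, and SERPINB2 has counts in 3 libraries.

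PLAT (ENSG00000104368, GRCh38 chromosome 8, 42175233 to 42207724, minus strand) encodes the tissue-type activator, the enzyme best known for dissolving fibrin clots. Its 3 SCC libraries held 1778, 1224 and 1314 counts, and its 3 RCC libraries 902, 940 and 735. Scaled for depth these were 65.95, 62.6 and 62.3 CPM in SCC and 39.2, 44.9 and 41.1 CPM in RCC. Every SCC library thus lay above every RCC library, and the gap of 17.4 CPM between the lowest SCC and the highest RCC library was wider than the spread within either group. The means were 63.6 ± 2.03 and 41.7 ± 2.91 CPM (SD, n = 3). On the log2 scale PLAT was higher by 0.61 (standard error 0.079, 95% interval 0.43 to 0.78, adjusted p = 0.0019, edgeR).

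That difference put PLAT at rank 81 of 15881 by p, and at rank 187 of the 268 genes called higher by fold change. Its log2 fold change lay at the 95.1st percentile of all tested genes, whose median was 0.00. PLAT stayed called without each of the 6 libraries in turn, with adjusted p from 1.80e-06 to 0.0332 and log2 fold changes from 0.55 to 0.66. Without SCC replicate 1 the log2 fold change was 0.58. With an offset for GC content, which in the longest PLAT transcript is 45.6%, it was 0.65. No other GENCODE 29 gene overlaps PLAT.

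PLAU (ENSG00000122861, GRCh38 chromosome 10, 73909177 to 73917497, plus strand) encodes urokinase, the activator that acts on the cell surface. The SCC libraries were at 203, 209.7 and 220.5 CPM, and the RCC libraries at 202, 203 and 189.8. The lowest SCC library and the highest RCC library thus lay within 0.28 CPM of each other, and in FPKM, the authors' value scaled by gene length and library total, SCC replicate 1 (67.9) fell below RCC replicate 2 (69.1). Means were 211 ± 8.72 CPM (SCC) and 198 ± 7.34 CPM (RCC; SD, n = 3). The log2 fold change of 0.09 (standard error 0.065) did not pass the test (adjusted p = 0.448, edgeR), and its 95% interval, -0.05 to 0.23, corresponds to a fold between 0.964 and 1.18.

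With the GC offset the PLAU log2 fold change was 0.02, and without SCC replicate 3 or RCC replicate 3 it was 0.05. PLAU lies across from C10orf55 on the opposite strand, and 916 of its 2950 exonic bases are also exonic there. The use of strand in counting was not stated, so the PLAU values are uncertain to that extent. C10orf55 itself averaged 1.31 ± 0.221 CPM (SCC) and 1.12 ± 0.095 CPM (RCC; SD, n = 3).

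PLAUR (ENSG00000011422, GRCh38 chromosome 19, 43646095 to 43670547, minus strand) encodes the urokinase receptor, which is held in the membrane by a lipid anchor and concentrates urokinase there. Its levels were 112, 101 and 106 CPM in SCC and 90.1, 87.0 and 97.7 CPM in RCC. All SCC libraries were above all RCC libraries, but the gap of 3.56 CPM between the nearest libraries was smaller than the SD of either group, 5.50 and 5.53. Its log2 fold change was 0.22 (standard error 0.074, 95% interval 0.06 to 0.38), and it was not past the threshold over all genes (unadjusted p = 0.0133, adjusted p = 0.154, edgeR). Without SCC replicate 1, the library with the highest PLAUR level, the log2 fold change was 0.18 (adjusted p = 0.0556, edgeR), and with the GC offset it was 0.12 (adjusted p = 0.212, edgeR).

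The RefSeq promoter of PLAUR is shown because AP-1 is the factor in the series title. Its 250 bases upstream of the start (GRCh38.p14 chr19:43670170-43670419, minus strand) hold 1 match to the AP-1 motif TGANTCA, a motif that reads the same on both strands. Of 35116 RefSeq promoter windows of the same length, 6.57% hold such a match. It spans positions -186 to -180 from the RefSeq start, and it is given in capitals here within 30 bases.
PLAUR AP-1 match: tcacaactccaTGAGTCAgggccgagccag
These bases (chr19:43670337-43670366) lie in the first exon of the GENCODE 29 transcripts PLAUR-201 and, in part, PLAUR-203, which start further upstream than the RefSeq one. A match is a sequence description, and no binding was measured in these data.

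The RefSeq promoter windows of PLAU, at the 2 starts listed, hold no AP-1 match in 250 bases. The window of the downstream start (chr10:73910882-73911131, plus strand) holds 3 matches to GGGCGG, the box bound by Sp1, searched on both strands. At least 1 such box is present in 42.6% of the 35116 windows. The match at -66 is shown, with the box in capitals, beside the box at -50 of the downstream of 2 SERPINE2 windows (chr2:224031479-224031728, minus strand). The other SERPINE2 window (chr2:224038641-224038890, minus strand) holds 2 such boxes, at -230 and -183, both on the opposite strand, and neither window holds an AP-1 match.
PLAU GGGCGG box: gggagggagccGGGCGGgagagggagggg
SERPINE2 GGGCGG box: ccaatggctgtGGGCGGaggagggaggtt
The PLAU box (chr10:73911055-73911083) also lies in an exon of C10orf55 on the other strand, and the SERPINE2 box (chr2:224031511-224031539) in no GENCODE 29 exon.

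SERPINE2 (ENSG00000135919, GRCh38 chromosome 2, 223975112 to 224039319, minus strand) encodes protease nexin-1, a serpin secreted into the matrix that inhibits thrombin, urokinase and plasmin. The SCC libraries were at 25.5, 26.9 and 26.2 CPM and the RCC libraries at 21.3, 20.02 and 20.3. The groups did not overlap, and the gap of 4.23 CPM between them was several times the SD of 0.730 in SCC and 0.647 in RCC. SERPINE2 had a log2 fold change of 0.35 (standard error 0.086, 95% interval 0.16 to 0.54), just short of the threshold (unadjusted p = 0.00189, adjusted p = 0.0686, edgeR).

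The SERPINE2 call differed between settings. Without SCC replicate 1 the log2 fold change was 0.37 (adjusted p = 0.0106, edgeR), and with the GC offset it was 0.44 (adjusted p = 0.00372, edgeR). In the other fits without 1 library the adjusted p was 0.0826 to 0.273 (edgeR). SERPINE2 was thus called in 3 of 19 alternatives, those with the GC offset or without SCC replicate 1, and its sign was the same in all 19. Both of those settings also raised the number of genes called over the whole table.

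SERPINB2 (ENSG00000197632, GRCh38 chromosome 18, 63871692 to 63903890, plus strand) encodes plasminogen activator inhibitor type 2, a serpin that stays largely inside the cell and is best known from monocytes, macrophages and keratinocytes. It had 5 counts in SCC replicate 1 and 0 in the other SCC libraries. RCC replicates 2 and 3 had 1 count each and replicate 1 had 0. A count of 0 allows up to 3 counts, or 0.130 to 0.153 CPM in these libraries, so only SCC replicate 1, at 0.185 CPM, lay above that limit. The ratio of summed counts per total, SCC over RCC, was 2.24 with a 95% exact interval of 0.367 to 23.5, which covers counting error only. The gene failed the filter on low counts, and a difference was not detectable at this depth.

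Markers of white blood cells were counted in the same libraries. PTPRC, the pan-leukocyte marker, had 53 counts in that library and 3 to 15 in the others, and LYZ, a lysozyme of myeloid cells, had 13 against 0 or 1. CD14, of monocytes, had 14 counts in SCC replicate 1 and 5 to 8 in the others, and CD79A, of B cells, had 2 there and 13 in RCC replicate 3. The 5 leukocyte markers examined (PTPRC, CD3E, CD79A, CD14 and LYZ) summed to 0.613 to 3.08 CPM in SCC and 0.435 to 1.57 in RCC, with SCC replicate 1 the highest, and the T cell marker CD3E had 1 count in SCC replicate 1 and 0 in the other 5 libraries. SERPINB10, which overlaps SERPINB2 on the same strand by 547 exonic bases, had 3 counts in SCC replicate 1 and 0 elsewhere. The part of such cells in the SERPINB2 counts was not tested.

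The RefSeq promoter of SERPINB2 (chr18:63887455-63887704, plus strand), shown for contrast with the near absence of its transcript, holds 1 AP-1 match at -102 and 1 match to the TATA motif TATAAA at -30. TATAAA, searched on both strands, is found in 10.7% of all windows.
SERPINB2 AP-1 match: gagtaaaatgtTGAATCActcaaaggacac
SERPINB2 TATA match: gggcaaagctgTATAAAaccagtcattac
Of the 5 genes, PLAUR and SERPINB2 hold the AP-1 motif in these windows, and PLAU and SERPINE2 do not. Bases further upstream were not searched, so a motif there would have been missed. The window of PLAT, the only called member, was not analysed here. The motif could therefore not be set against the calls, and a part of AP-1 in these levels was not tested. The SERPINB2 AP-1 match is at chr18:63887592-63887621 and the TATA match at chr18:63887664-63887692, both outside GENCODE 29 exons.

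Levels of different genes were compared in FPKM, which accounts for gene length. That length was the union of all annotated exons, 2950 bases for PLAU, 4457 for PLAUR, 6618 for PLAT and 8891 for SERPINE2. It is not the length of the transcripts present, so factors between genes depend on it. In CPM, without regard to length, PLAU averaged 211 and PLAT 63.6 in SCC, and 198 and 41.7 in RCC. The order in FPKM was PLAU, PLAUR, PLAT, SERPINE2 and SERPINB2 in each of the 6 libraries. PLAU averaged 71.1 ± 3.36 FPKM (SCC) and 67.0 ± 2.63 FPKM (RCC; SD, n = 3). PLAUR followed at 23.7 ± 1.09 and 20.5 ± 1.18 FPKM, and PLAT at 9.54 ± 0.239 and 6.29 ± 0.479. SERPINE2 was at 2.93 ± 0.0972 and 2.30 ± 0.0601 FPKM, and SERPINB2 at most at 0.0665 in any library. No pair of neighbours in this order overlapped over the 6 libraries.

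**Figure D2:**
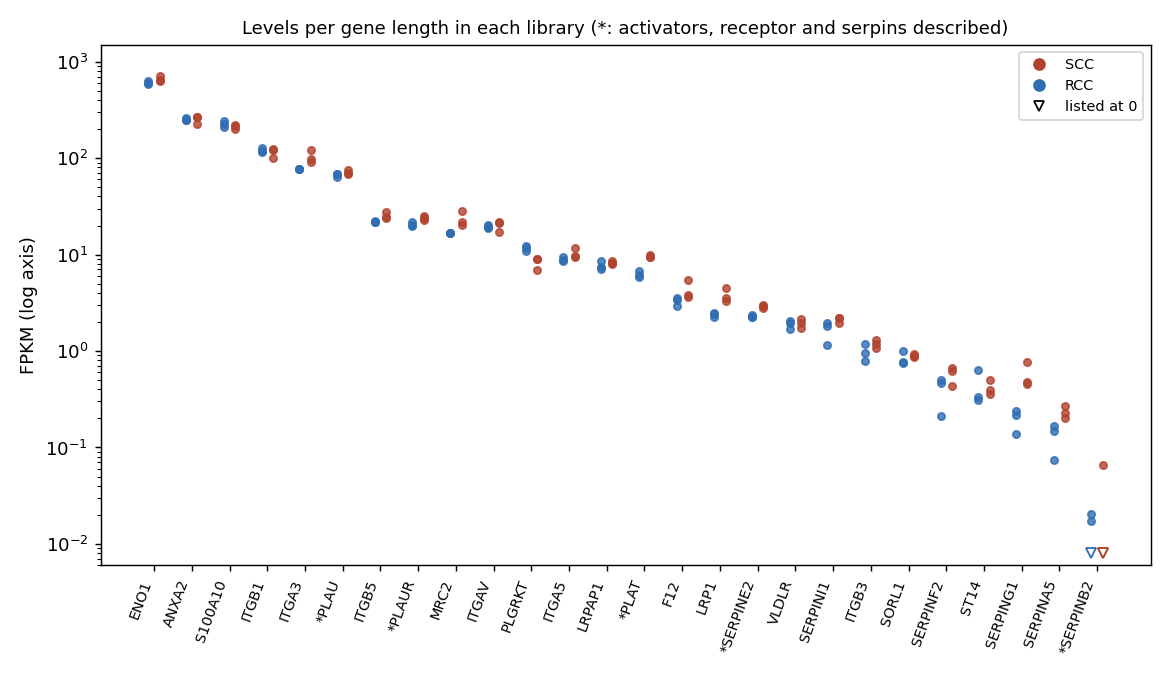
FPKM (y axis, log scale) of each library for the 5 genes (marked with an asterisk) and for the tested genes of the wider plasminogen system, ordered by mean level, in RCC (blue) and SCC (red), with open triangles for libraries listed at 0. PLAU is among the higher genes at 64.0 to 74.5 FPKM, PLAT lies at 5.87 to 9.82, and SERPINB2 is the lowest at 0.0665 or less.

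Ratios within a library show how the balance of these transcripts differed, without any scaling between libraries. GC content was 54.0% for PLAU, 55.7% for PLAUR, 45.6% for PLAT and 41.0% for SERPINE2 (longest transcript). A trend with GC content in a library, such as SCC replicate 1, therefore does not cancel in ratios of unlike genes. The size of each ratio also depends on the gene lengths used. PLAU exceeded PLAT by 6.91, 7.52 and 7.94 times in the SCC libraries and by 11.6, 10.1 and 10.4 times in the RCC libraries. Urokinase transcript was thus the major activator in both fractions, by a smaller factor in every SCC library. PLAU exceeded PLAUR by 2.74 to 3.14 times in SCC and 2.93 to 3.53 times in RCC, and these ranges overlapped. PLAUR exceeded PLAT by 2.403 to 2.528 times in SCC and 2.875 to 3.529 times in RCC. PLAT exceeded SERPINE2 by 3.12 to 3.48 times in SCC and 2.48 to 3.01 times in RCC. PLAU, in contrast, exceeded SERPINE2 by 23.5 to 25.4 times in SCC and by 28.2 to 30.5 times in RCC. The groups did not overlap for 4 of the 5 ratios computed, all but PLAU over PLAUR. Each of those 4 holds PLAT or SERPINE2, so they restate the differences above and are not separate results. Among single genes, 27.8% of all tested did not overlap in CPM, and the share over ratios of other genes was not computed. With 3 libraries each, a lack of overlap fixes the p-value below. In a two-sided exact permutation test of the log ratio each of those 4 gave p = 0.1, the smallest that 3 against 3 libraries allow (0.125 adjusted over the 5 ratios by Benjamini-Hochberg), and PLAU over PLAUR gave p = 0.3.

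Among 29 other genes of the plasminogen system, 21 passed the filter, 1 was called higher and 0 lower. Of all tested genes 1.69% were called higher and 0.378% lower. Before adjustment, 6 of the 21 were higher at p under 0.05 and 1 lower, and 19.7% of all tested genes passed in either direction. Their median log2 fold change was 0.21, against 0.00 for all tested genes, and 17 of 21 were above 0, as were 50.5% of all tested genes. The count called higher was 0 without RCC replicate 1, 2 or 3, 3 without SCC replicate 1 and 4 without SCC replicate 2. It was 4 with the replicate number as a block, and over all 19 alternatives 0 to 4 were called higher and 0 to 2 lower.

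**Figure D3:**
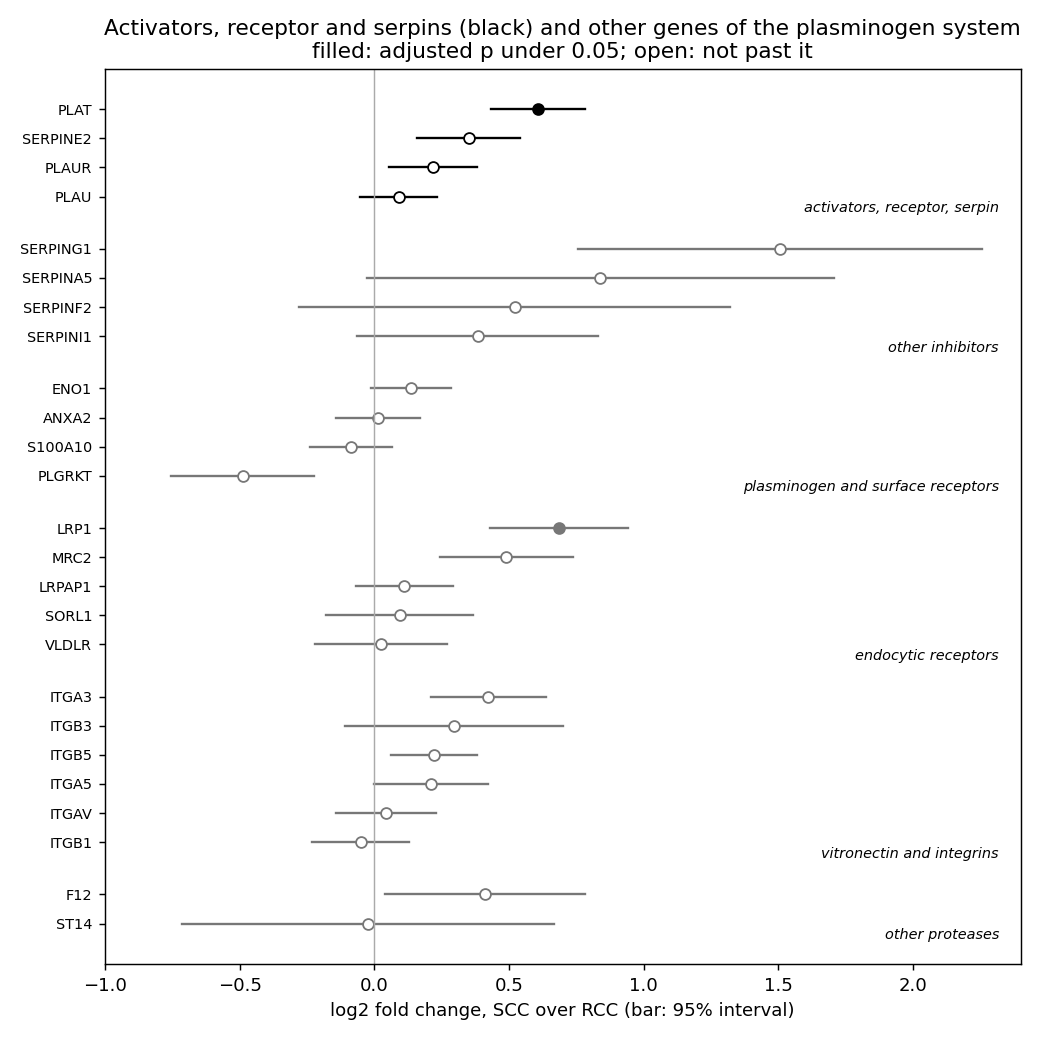
Log2 fold change of SCC over RCC (x axis; bars are 95% intervals of the edgeR fit) for the 4 tested activator, receptor and serpin genes (black) and 21 other tested genes of the system (grey) by role, with filled circles for an adjusted p under 0.05. PLAT (0.61) and LRP1 (0.69) are filled, and PLAU lies at 0.09.

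Inhibitors come first among them. SERPINI1, the gene of neuroserpin, an inhibitor of tissue-type activator best known from neurons, had the highest level of the 4 tested here. Its libraries were at 5.42, 4.75 and 5.36 CPM in SCC and 2.83, 4.73 and 4.42 in RCC, so that the groups nearly touched. SERPINI1 differed by 0.38 on the log2 scale (95% interval -0.06 to 0.83, adjusted p = 0.311, edgeR), and by 0.17 without RCC replicate 1. SERPINF2, SERPINA5, SERPINI1 and SERPING1 were at most at 2.21 FPKM in any library and not called, and CPB2, A2M and PZP did not pass the filter. SERPING1, the gene of the complement C1 inhibitor, chosen after its values were seen, was at 2.78, 1.64 and 1.71 CPM in SCC and 0.782, 0.860 and 0.503 in RCC. Its log2 fold change was 1.51, or 2.84-fold (adjusted p = 0.0501, edgeR). It was called in 9 of 16 alternatives, among them the replicate block (adjusted p = 0.0370, edgeR), and not without SCC replicate 1 (1.20, adjusted p = 0.0845, edgeR).

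Plasminogen itself (PLG), which is made mainly by the liver, had 2 counts in all 6 libraries together. Levels of its surface receptors differed widely. ENO1, a glycolytic enzyme that also binds plasminogen at the surface, was highest, averaging 660 ± 41.6 FPKM (SCC) and 603 ± 21.8 FPKM (RCC; SD, n = 3), with a log2 fold change of 0.14 (adjusted p = 0.282, edgeR). ANXA2 and S100A10, which form a complex that binds tissue-type activator and plasminogen, had log2 fold changes of 0.01 and -0.09 (adjusted p = 0.931 and 0.493, edgeR). PLGRKT, a membrane receptor of plasminogen chosen after its values were seen, was at 10.5, 13.4 and 13.3 CPM in SCC and 17.5, 18.3 and 16.3 in RCC. Its log2 fold change was -0.49 (adjusted p = 0.0694, edgeR), and it was called lower without SCC replicate 1 (-0.38, adjusted p = 0.0307, edgeR) and without SCC replicate 2 (-0.56, adjusted p = 0.0379, edgeR).

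The endocytic receptors held the gene that was called. LRP1 (ENSG00000123384, GRCh38 chromosome 12, 57128493 to 57213351), which takes up complexes of activators with their inhibitors, was at 96.1, 69.4 and 73.6 CPM in SCC and 50.8, 46.4 and 51.6 in RCC. All SCC libraries were above all RCC libraries, with SCC replicate 1 well above the other two. LRP1 was higher by 0.69 on the log2 scale (standard error 0.116, adjusted p = 0.0122, edgeR), and 0.53 when SCC replicate 1 was left out and 0.50 under the GC offset. It was not past the threshold without RCC replicate 1, 2 or 3 (adjusted p = 0.0823, 0.0851 and 0.0710, edgeR), nor in the 3 limma settings (0.0890 to 0.303). MRC2, a collagen receptor that associates with the urokinase receptor, was the most abundant gene of this role. It was at 196, 138 and 149.9 CPM in SCC and 115, 113 and 116 in RCC, with a log2 fold change of 0.49 (adjusted p = 0.0518, edgeR). The MRC2 value was 0.33 without SCC replicate 1 (adjusted p = 1.06e-04, edgeR), 0.24 with the GC offset (adjusted p = 0.00604, edgeR) and 0.47 with the replicate block (adjusted p = 0.0175, edgeR), and it was called in those and 6 other alternatives of 19.

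Integrins that associate with the urokinase receptor were not called. ITGB1, the most abundant, averaged 115 ± 13.3 FPKM (SCC) and 120.1 ± 4.94 FPKM (RCC; SD, n = 3), a log2 fold change of -0.05 (adjusted p = 0.750, edgeR). ITGA3, its laminin-binding partner, differed by 0.42 on the log2 scale (adjusted p = 0.0531, edgeR), and was called in 10 of 19 alternatives. Among these were the fits without SCC replicate 1 (0.29, adjusted p = 1.05e-04, edgeR), with the GC offset (0.22, adjusted p = 0.0109, edgeR) and with the replicate block (0.41, adjusted p = 0.0224, edgeR). Vitronectin (VTN) did not pass the filter. Of the other proteases, F12, coagulation factor XII, was the most abundant at 4.30 ± 1.02 and 3.28 ± 0.288 FPKM (SD, n = 3), with a log2 fold change of 0.41 (adjusted p = 0.217, edgeR). The F12 value was 0.13 under the GC offset and 0.19 when SCC replicate 1 was left out.

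Of 32 other serpin genes, 11 passed the filter, 1 was called higher and 0 lower, and 2 were higher and 0 lower before adjustment (p under 0.05). This share before adjustment is near that of all tested genes, 19.7% in either direction, and 1.69% of all tested genes were called higher. All 11 log2 fold changes were above 0, as were 50.5% of all tested genes. Their median was 0.16, against 0.00 for all tested genes. The list shares SERPINF2, SERPINA5, SERPINI1 and SERPING1 with the one above. SERPINA1 (ENSG00000197249, GRCh38 chromosome 14, 94376747 to 94390693), the gene of alpha-1 antitrypsin, an inhibitor of neutrophil elastase, was at 4.19, 2.97 and 3.13 CPM in SCC and 1.48, 1.91 and 1.51 in RCC. Its groups did not overlap at these low levels. SERPINA1 was higher by 1.08 on the log2 scale (standard error 0.234, adjusted p = 0.0444, edgeR). That call was lost without SCC replicate 1 (adjusted p = 0.0574, edgeR), SCC replicate 3 (0.0867) or RCC replicate 1 (0.198), 2 (0.0983) or 3 (0.164).

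Genes whose log2 CPM followed each member most closely over the 6 libraries were named by Pearson's r, as a description. PLAT was closest to MYL6B (r = 0.997), UBE2L6 (0.997) and VPS11 (0.996), among 214 tested genes with r above 0.95. For SERPINE2 they were RNU5A-1 (0.999), MEI1 (0.998) and GABARAPL1 (0.996), among 171 such genes. PLAUR was nearest to ABHD4 (0.995), TESK2 (0.992) and RHPN1 (0.990), among 129, and PLAU to WASHC2A (0.993), CFAP44 (0.989) and ACAD8 (0.987), among 31. The points of each r share the 2 groups and the library depths.

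**Figure D4:**
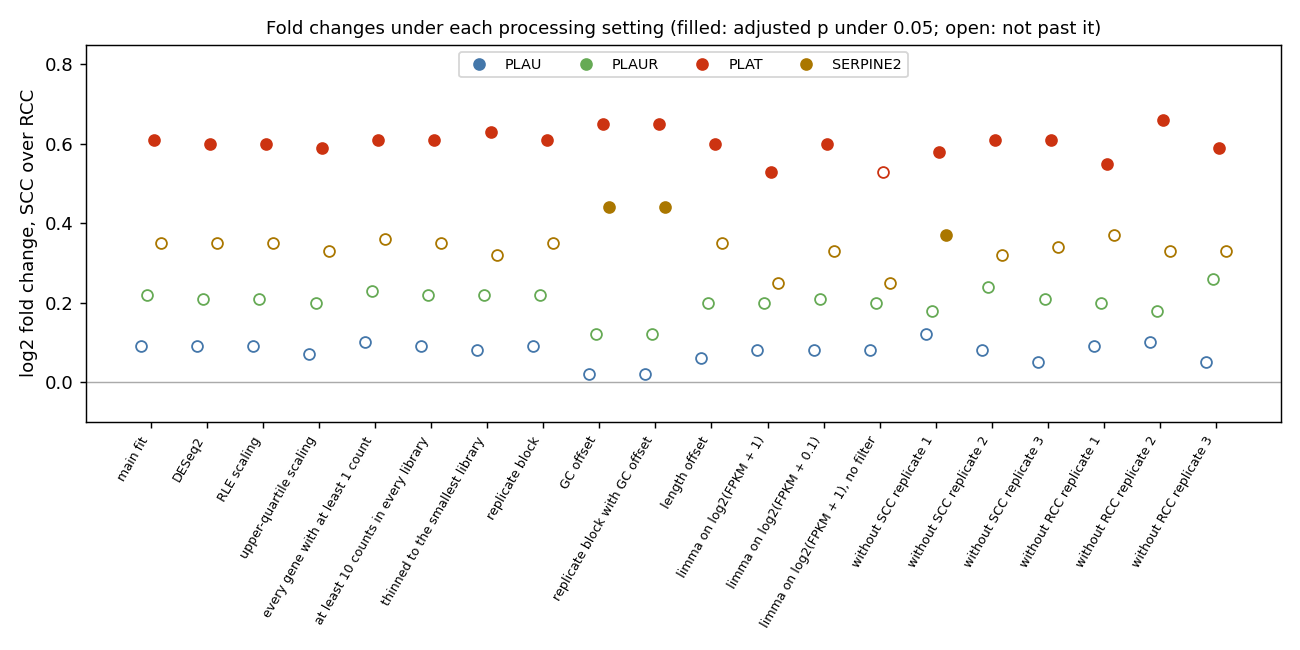
Log2 fold change of SCC over RCC (y axis) of PLAU, PLAUR, PLAT and SERPINE2 under the reported fit and 19 alternatives (x axis), with filled circles for an adjusted p under 0.05. PLAT stays between 0.53 and 0.66 and is open in 1 setting, SERPINE2 is filled in 3, and PLAU and PLAUR are open throughout.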

How the data were processed

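RNA-seq counts of 6 libraries, 3 SCC and 3 RCC, were used. Per the labels' protocols, 1.0 µg of TRIzol-extracted RNA entered an NEBNext Ultra library. HISAT2 2.0.5 and featureCounts 1.5.0-p3 are named in the submitters' processing notes. The genome build, read filters and use of strand are not given in the sources used here. The authors deposited whole-number counts per gene and FPKM per gene. In genes with higher counts, the only ones checked, FPKM equalled the count divided by gene length and 1 constant per library. That constant was 0.983 to 1.02 times the summed count. All 58735 rows had the ID and position of GENCODE 29 on GRCh38.

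Counts were filtered with filterByExpr (minimum count 10, by group), scaled by TMM and fitted on group alone with edgeR 4.0.16 (R 4.3.3). The quasi-likelihood F test was two-sided, with Benjamini-Hochberg adjustment. CPM uses TMM-scaled totals, and fold changes are fitted values. Alternatives used DESeq2 1.42.0, limma 3.58.1 on log2(FPKM + 1) or log2(FPKM + 0.1), other scalings and filters, offsets for GC content of the longest transcript or for length (lowess, span 0.3), thinning, a block for replicate number, and fits without 1 library. The fit was tested on simulated data with the same dispersion for every gene and no library that stood apart. That test therefore does not cover a library such as SCC replicate 1. Libraries of a group differed by more than sampling noise (chi-square per degree of freedom 3.17 to 24.6), so each counted as 1 replicate. Intervals of log2 fold changes come from the edgeR fit, which takes in the spread between libraries. The exact interval of the SERPINB2 ratio and the limits for 0 counts cover counting error only.

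The members, lists and tests were chosen with earlier results of these data known. One gene of both lists is not reported here and stays out of their counts. Named genes are the 5 members, called genes of the 2 lists, the most abundant gene of each role and the 3 closest genes to each tested member. Other genes, among them MKI67, PLGRKT, ANXA2, S100A10, ITGA3, C10orf55, SERPINB10 and the marker genes, were named as checks or after their values were seen. Promoter sequences are from RefSeq (GRCh38.p14), and 4 of the 5 members were searched. PLAT was left out of that search.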

Additional observations from a re-analysis of the deposited data

How the results depend on the processing

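Over 19 alternatives each, PLAU (log2 fold change 0.02 to 0.12) and PLAUR (0.12 to 0.26) kept their sign and were never called. PLAT kept its sign (0.53 to 0.66) and its call except with limma on log2(FPKM + 1) without a filter (0.53, adjusted p = 0.0728). SERPINE2 kept its sign and was called with the GC offset (0.44), with the replicate block and GC offset together (0.44, adjusted p = 0.00273) and without SCC replicate 1. Without 1 library each it ranged from 0.32 to 0.37. In the fit of every gene with at least 1 count, the log2 value of SERPINB2 was 0.89 (adjusted p = 0.830, edgeR).

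Counts of called genes, 268 higher and 60 lower, became 480 and 170 with DESeq2, 995 and 315 for every gene with at least 1 count, 523 and 245 with the GC offset, and 621 and 432 with the replicate block and GC offset. With limma they were 130 and 36 on log2(FPKM + 1), 117 and 34 on log2(FPKM + 0.1), and 48 and 1 without a filter. Leaving out 1 library gave 99 to 642 higher and 8 to 343 lower, with the most without SCC replicate 1 (642 and 343) and SCC replicate 2 (585 and 261). The cause of these shifts was not tested. Same-numbered libraries did not deviate together (correlations -0.00912, 0.0249 and -0.0788), and 1 of 6 libraries correlated best with its own number, so the numbers were not taken to pair them. The replicate block gave 350 higher and 106 lower genes and changed no call of the 4 tested members.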
